A study of Rattus norvegicus with 12 samples.

Results

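The genes described here are the oxygen-sensing prolyl hydroxylases Egln1, Egln2 and Egln3, the hypoxia-inducible factors Hif1a and Epas1, and Vhl, the recognition subunit of the ubiquitin ligase that marks those factors for destruction. They were found by the platform's gene symbols, as the probe sets that carry one of these 6 symbols and no other. The 6 genes have 8 probe sets, of 31099 on the array and of 20826 that carry a single symbol (14217 genes). Egln1 and Epas1 have 2 probe sets each and the others 1. Where a gene has 2, the brighter one stands for it below.

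Total RNA from rat cerebellar granule neuron cultures, labelled as brain, cerebellum, was measured on 12 Affymetrix arrays. The 4 groups, 3 arrays each with the letters A, B and C, were GW5074 at 6 h, low potassium at 6 h, GW5074 at 3 h and low potassium at 3 h. GW5074 is a small-molecule kinase inhibitor known to act on c-Raf, and lowering the potassium of the medium is a standard way to set off the death of granule neurons in culture. No group is labelled as untreated or as raised potassium, and no strain, age or dose is labelled. Whether potassium was also low in the GW5074 cultures is not labelled. It is also not labelled whether A, B and C were grown separately, and if they were not, the p-values measure a technical spread. The GW5074 6 h array A carries a title suffix that differs from the other 11, with no stated meaning.

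The EGLN enzymes use oxygen, 2-oxoglutarate and iron to hydroxylate prolines of the HIF alpha subunits. VHL binds the hydroxylated subunit, which is then degraded, and in low oxygen the subunit escapes this, pairs with ARNT and switches on genes for glycolysis, glucose uptake, vessel growth and cell survival or death. In many cell types EGLN1 is the main oxygen sensor and EGLN3 is itself a target of HIF. Rat Egln3 was first described as SM-20, a gene of smooth muscle that responds to growth factors, and in rat sympathetic neurons it is induced by loss of nerve growth factor and promotes their death. HIF alpha levels are set mainly through protein stability, which the arrays do not measure.

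The 250 bases before the transcript start of all 6 genes were read from RefSeq's rat promoter table (assembly GRCr8), and a pair of them is shown: that of Egln3, the member that passed the test below, and that of Hif1a, which held the most matches. Capitals mark the core of the HIF response element, searched as ACGTG and GCGTG on both strands. The Hif1a window lies inside the annotated span of its gene, before the start of the transcript that the table uses.
Egln3, chr6:77411016-77411265, minus strand: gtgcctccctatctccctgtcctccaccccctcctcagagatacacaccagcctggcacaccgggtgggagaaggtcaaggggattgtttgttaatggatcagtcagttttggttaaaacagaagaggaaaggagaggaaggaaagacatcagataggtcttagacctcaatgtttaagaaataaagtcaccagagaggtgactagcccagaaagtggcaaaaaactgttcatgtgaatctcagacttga
Hif1a, chr6:98359648-98359897, plus strand: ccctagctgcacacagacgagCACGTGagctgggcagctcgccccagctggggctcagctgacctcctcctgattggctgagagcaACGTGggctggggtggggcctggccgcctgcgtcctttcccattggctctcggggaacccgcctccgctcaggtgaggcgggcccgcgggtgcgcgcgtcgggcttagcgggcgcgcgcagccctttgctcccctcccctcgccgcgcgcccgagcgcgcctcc
In the Hif1a window ACGTG began 228 and 164 bases before the start, and the match at 228 also read ACGTG on the other strand, since it is a palindrome, CACGTG. The Egln3 window held neither core, and it held 1 CpG against 27 in the Hif1a window, with a GC content of 46.8% against 73.6%. Among the other genes the Egln1 window held GCGTG once, 56 bases before the start, and those of Egln2, Epas1 and Vhl held neither. Of all 33469 windows, 36.7% held at least 1 of the 2 cores (ACGTG in 16.6% and GCGTG in 25.9%), the median CpG count was 5 and the median GC content 51.2%. A match is a description of these letters and not a measured binding site.

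The arrays were split more by time than by treatment. Principal component 1 took 54.7% of the variance. With its scale set to 1 at the 6 h mean and 0 at the 3 h mean, letters A and C at 6 h fell at 1.1 to 1.23 and all 3 h arrays at -0.0844 to 0.115. Letter B stood apart at 6 h, with 0.628 for GW5074 and 0.691 for low potassium. RNA quality, read from the actin control as its 3-prime over 5-prime signal, was 0.97 to 1.17 (log2) at 6 h and 0.85 to 1.36 at 3 h. All 14 measured granule neuron markers (of 15 listed) had a mean above the level needed for testing, which bears on the labelled cell type. Their summed intensity was between 21637 and 27943 at 6 h and between 14153 and 19489 at 3 h. The number of arrays limits the precision of every value below.

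The comparison of 6 h with 3 h asks which of these genes differ between the times within each treatment. Egln3 fell in both treatments, 2.26-fold with GW5074 and 2.03-fold in low potassium, and no other member passed the threshold (limma adjusted p under 0.05 over all 18625 probe sets tested). The Egln3 call held in 20 of 25 alternatives with GW5074 and in 9 of 25 in low potassium. Vhl was lower at 6 h in both treatments but missed the threshold, and Hif1a, Egln1, Egln2 and Epas1 did not pass it either. Without an untreated group, time in culture and time in treatment cannot be told apart. In a culture of several cell types, fewer cells of a type and less RNA per cell cannot be told apart either.

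**Figure D1:**
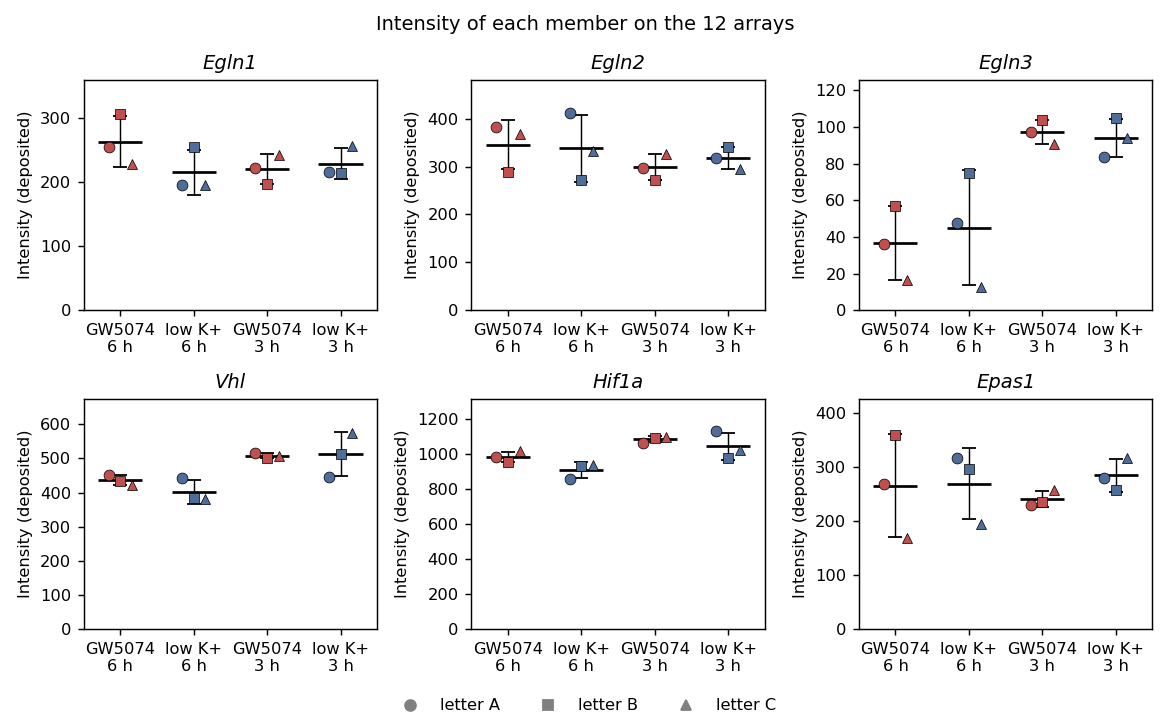
Deposited intensity (vertical axis, linear, from 0) of the 6 genes on the 12 arrays, by group (horizontal axis), with the letters A, B and C as circles, squares and triangles and the mean ± SD of 3 arrays as bars. Egln3 values run from 12.6 to 74.8 at 6 h and from 83.4 to 104.6 at 3 h. In each treatment its 6 h arrays lie below its 3 h arrays, as for 18.9% of all probe sets with GW5074 and 19.4% in low potassium. The groups of Egln1, Egln2 and Epas1 overlap.

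Egln3 had deposited intensities of 36.3, 56.9 and 16.5 with GW5074 at 6 h (letters A, B and C), against 97.4, 103.7 and 90.7 with GW5074 at 3 h. In low potassium it had 47.7, 74.8 and 12.6 at 6 h, against 83.4, 104.6 and 93.8 at 3 h. In each treatment all 3 arrays at 6 h were below all 3 at 3 h, as for 18.9% of all probe sets with GW5074 and 19.4% in low potassium. Letter C was lowest and letter B highest at 6 h in each treatment. The spread between letters was wider at 6 h (SD 20.2 with GW5074 and 31.2 in low potassium) than at 3 h (6.48 and 10.6 for the same treatments). The 6 h letter B arrays, which held the highest Egln3 intensity of their groups, were also those that lay nearest the 3 h arrays on the first principal component.

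On the log2(intensity + 16) scale, which understates changes of dim genes, Egln3 fell by 1.17 with GW5074 (SE 0.336, 95% interval -1.89 to -0.45, 2.26-fold, limma adjusted p = 0.0211). In low potassium it fell by 1.02 (SE 0.336, -1.74 to -0.30, 2.03-fold, adjusted p = 0.0426). With the arrays of a letter and time held as a pair, the adjusted p was 0.00834 with GW5074 and 0.0193 in low potassium, and these calls too rested on single pairs. In the paired fit the low potassium call ended without the 3 h pairs B (-0.95, adjusted p = 0.105) or C (-1.02, 0.053) and the 6 h pairs A (-1.10, 0.0527) or C (-0.59, 0.0804), and the GW5074 call without the 3 h pair B (-1.13, 0.0507). Averaged over both treatments, a comparison added after the data had been seen and always fitted with the pairs, Egln3 fell by 1.10 (SE 0.253, -1.63 to -0.56, 2.14-fold, adjusted p = 0.00401). These fits with pairs used a common correlation for all probe sets (0.496), not one estimated for Egln3. If its paired arrays were more alike than that, the averaged SE and p are too small. The averaged call held in all 24 alternatives that tested it (a filter at the 60th percentile removed the probe set), with values from -1.44 to -0.65 and adjusted p from 0.000226 to 0.0367.

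Without pairs, single arrays decided the calls within a treatment, mostly with little change in the size of the fall. The low potassium call ended without the 6 h array C, where the change was -0.59 (adjusted p = 0.189). It also ended without the low potassium arrays 3 h C (-1.02, 0.0859), 6 h A (-1.10, 0.0785), 3 h A (-1.10, 0.0736) or 3 h B (-0.95, 0.131). Since all groups share the estimate of spread, it ended as well without the GW5074 arrays 6 h A (0.0553), 3 h A (0.0526) or 3 h B (0.0576), with the change at -1.02 each time. The GW5074 call ended without the 6 h arrays C (-0.86, adjusted p = 0.0967) or A (-1.22, 0.0562) and the 3 h arrays A (-1.15, 0.0596) or B (-1.13, 0.0711). Leaving out both 6 h arrays of letter B, an alternative added after seeing the data, gave -1.43 with GW5074 (adjusted p = 0.00247) and -1.37 in low potassium (0.00355); these arrays held the highest 6 h values, so a larger fall follows from their removal and is no added support.

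Falls were common in these comparisons, so that 1 member of 6 is not a result about the group. Of all probe sets tested, 11.9% fell with GW5074, 11% in low potassium and 14.9% in the average. In either direction 25%, 22.7% and 30.4% passed, in the same order. The change of Egln3 between the times did not pass a test of a difference between the treatments (log2 -0.15, 95% interval -1.17 to 0.87, limma adjusted p = 1). Beside the fall of Egln3, the summed granule neuron markers were 21806 to 27943 with GW5074 at 6 h, against 14153 to 17824 with GW5074 at 3 h, and 21637 to 25597 in low potassium at 6 h, against 15167 to 19489 at 3 h. Of the 14 tested, 13 rose and 0 fell with GW5074, while 6 rose, 1 fell and 7 did not pass in low potassium. Snap25 was the brightest (4625 to 7155 over the 12 arrays). Markers of astrocytes (11 of 12 measured, 9 bright enough to test) summed to 3671 to 5653 at 6 h and to 2840 to 3330 at 3 h. Slc1a2 and Gjb6 were below the level for testing. Of the 9 tested, 1 rose and 1 fell in each treatment, with medians of -0.05 with GW5074 and -0.13 in low potassium. Gfap was the brightest (357 to 2764 over the 12 arrays), and the sum does not give the direction of most of the list. Oligodendrocyte lineage markers (10 of 11 measured, 7 testable) summed to 1917 to 2804 at 6 h and to 2681 to 3985 at 3 h, with Olig2, Cspg4 and Mobp below that level. In each treatment 1 of the 7 fell, 0 rose and 6 did not pass, with medians of -0.12 with GW5074 and -0.40 in low potassium. Microglial markers (12 of 12 measured, 7 testable) summed to 483 to 925 at 6 h and 486 to 985 at 3 h, with Aif1, Cx3cr1, Itgam, P2ry12 and Ptprc below that level. Markers of Purkinje and GABAergic neurons (8 of 9 measured, 8 testable) summed to 2390 to 3273 at 6 h and 2375 to 3092 at 3 h. The part of cell makeup in the fall of Egln3 was not tested.

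**Figure D2:**
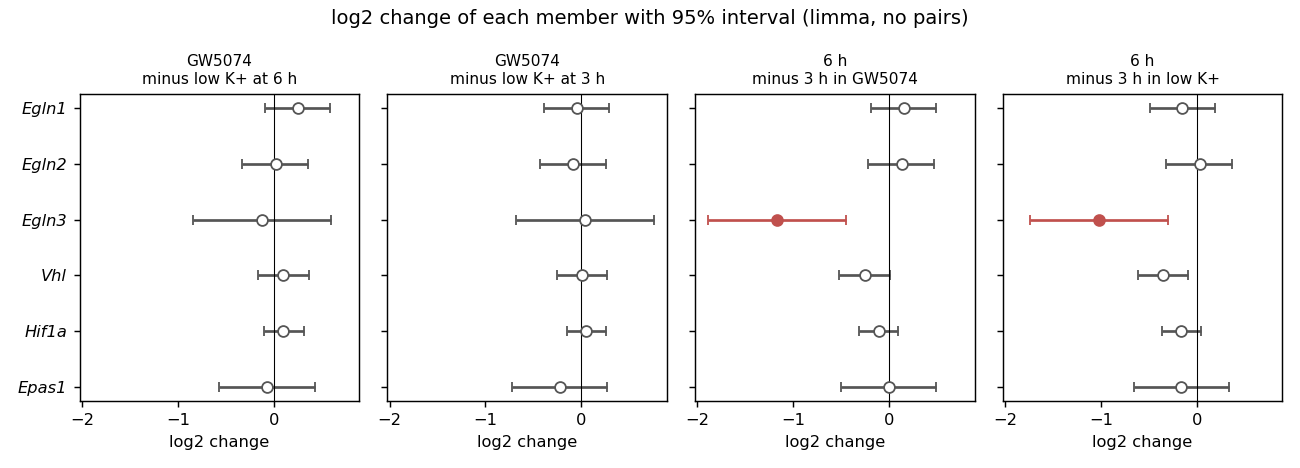
Log2 change of each gene (horizontal axis, log2 of intensity + 16) with its 95% interval from limma without pairs, for GW5074 minus low potassium at 6 h and 3 h and for 6 h minus 3 h in each treatment. Filled points mark an adjusted p under 0.05, which Egln3 alone reached, at -1.17 with GW5074 and -1.02 in low potassium.

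Egln1, the main oxygen-sensing hydroxylase in many cells, had intensities of 255.9, 307 and 228.2 with GW5074 at 6 h, against 223.3, 196.8 and 243.6 with GW5074 at 3 h. In low potassium Egln1 had 195.3, 255.6 and 195.9 at 6 h, against 216.2, 215.3 and 256.9 at 3 h. The groups overlapped in both treatments, and the changes were 0.15 with GW5074 (95% interval -0.19 to 0.49) and -0.15 in low potassium (-0.49 to 0.19). Its second probe set was dim (mean intensity 2.56) and did not reach the level for testing. With no filter its changes were 0.01 with GW5074 and 0.00 in low potassium (limma adjusted p = 0.987 and 0.999).

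Egln2, the hydroxylase best known as oestrogen-responsive, had 381.8, 288.1 and 368.1 with GW5074 at 6 h, against 297.4, 272.2 and 326.7 with GW5074 at 3 h. In low potassium Egln2 had 411.1, 271.1 and 333.5 at 6 h, against 318.2, 341.1 and 294.8 at 3 h. The groups overlapped, letter B was lowest in both 6 h groups, and the changes were 0.13 with GW5074 (-0.22 to 0.47) and 0.03 in low potassium (-0.32 to 0.37). Of the 3 hydroxylases only Egln3 passed, and the change of Egln3 was not tested against those of Egln1 and Egln2.

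Vhl had 450.9, 434.1 and 422.4 with GW5074 at 6 h, against 515.1, 499.9 and 507.9 with GW5074 at 3 h. In low potassium Vhl had 443, 383 and 380.7 at 6 h, against 446.3, 513.8 and 575.7 at 3 h. All 3 arrays at 6 h were below all 3 at 3 h in both treatments, as for 18.9% of all probe sets with GW5074 and 19.4% in low potassium. In low potassium the highest 6 h value, 443, was close to the lowest 3 h value, 446.3. The change was -0.25 with GW5074 (95% interval -0.52 to 0.01, limma adjusted p = 0.149) and -0.35 in low potassium (-0.61 to -0.09, adjusted p = 0.0541). The average over both treatments was -0.30 (SE 0.112, adjusted p = 0.0525), and it passed in 4 of 25 alternatives: with no filter (0.0342), without low potassium 3 h A (-0.35, 0.0309), without low potassium 6 h A (0.0422) and without GW5074 6 h B (0.0487). In low potassium it passed without the 3 h array A (-0.44, adjusted p = 0.0395) and with a filter at the 60th percentile (0.0418).

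Hif1a, the widely expressed alpha subunit, had 980.2, 954.8 and 1013.7 with GW5074 at 6 h, against 1061.8, 1089.7 and 1092.8 with GW5074 at 3 h. In low potassium Hif1a had 853.4, 931.8 and 937.7 at 6 h, against 1128.9, 975.3 and 1019.7 at 3 h. All 3 arrays at 6 h lay below all 3 at 3 h in both treatments, but the changes were small and did not pass: -0.11 with GW5074 (95% interval -0.31 to 0.09, limma adjusted p = 0.425) and -0.16 in low potassium (-0.36 to 0.04, 0.242). Egln3, Vhl and Hif1a thus were the 3 of 6 members whose 6 h arrays all lay below the 3 h arrays, in each treatment. The same held for 18.9% of all probe sets with GW5074 and 19.4% in low potassium.

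Epas1, the HIF-2 alpha subunit known for its high level in vessel walls, had 268.7, 359 and 167.9 with GW5074 at 6 h, against 229.6, 235.7 and 257.8 with GW5074 at 3 h. In low potassium it had 316.5, 295.4 and 193.6 at 6 h, against 279.4, 256.4 and 316 at 3 h. The groups overlapped, letter C was lowest in both 6 h groups, and the changes were 0.00 with GW5074 (-0.50 to 0.49) and -0.16 in low potassium (-0.65 to 0.34). Of 13 measured endothelial and pericyte markers (of 14 listed), 12 were below the level for testing, Pecam1, Kdr and Cldn5 among them, and the 13 summed to between 158 and 237 at 6 h and between 171 and 253 at 3 h. A second Epas1 probe set, with a mean of 27.7, was just under the level of 28.0 that the filter required. With no filter its changes were 0.19 with GW5074 (limma adjusted p = 0.817) and 0.35 in low potassium (0.636), the second opposite in sign to the -0.16 of the brighter probe set. It had 27.4, 36.6 and 9.41 with GW5074 at 6 h and 25.3, 43.3 and 44.7 in low potassium at 6 h, against 35.4, 24.5 and 4.26 and 22.2, 42.1 and 17.1 for the same treatments at 3 h.

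By the smallest root-mean-square difference between log2 profiles centred over the 12 arrays, the genes most like Egln3 were Ciapin1 (0.153), which takes part in iron-sulphur cluster assembly, the nuclear import factor Ipo5 (0.16), the phospholipid-binding annexin Anxa5 (0.162) and the phosphatase inhibitor Ppp1r14b (0.17). Their changes from limma were between -1.20 and -1.06 with GW5074 and between -1.13 and -1.01 in low potassium. Being chosen for this likeness, they are a description.

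The comparison of GW5074 with low potassium asks whether these genes differed between the labelled treatments at either time. Potassium in the GW5074 cultures is not labelled, so the inhibitor and a difference in potassium cannot be told apart. None of the 6 members passed at 6 h or at 3 h, with or without pairs, and none passed the test of a difference between the 2 times. Without pairs limma called 0% of all probe sets at 6 h, at 3 h and in the difference between the times (895, 300 and 645 probe sets at an unadjusted p under 0.05). With pairs it called 1.87% at 6 h (349 probe sets), 0.0161% at 3 h (3) and 0.193% for the difference (36). The probe sets at an unadjusted p under 0.05 with pairs were 3036, 1225 and 2507 in the same order.

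Egln1 came nearest at 6 h. Its intensity was 255.9, 307 and 228.2 with GW5074, against 195.3, 255.6 and 195.9 in low potassium, so that the groups overlapped. Within the 3 letters GW5074 minus low potassium was 0.34, 0.23 and 0.20 (log2). How many of all probe sets have 1 sign in the 3 letters was not computed. At 3 h the 3 differences were 0.04, -0.12 and -0.07. The change at 6 h was 0.25 (95% interval -0.09 to 0.59, limma adjusted p = 0.983). With pairs the interval was 0.03 to 0.47, with an unadjusted p of 0.0273 in limma that did not survive adjustment over all probe sets (0.236). In that fit 3036 of 18625 probe sets had an unadjusted p under 0.05, so this p is not unusual. The change at 6 h minus that at 3 h was 0.30 (-0.18 to 0.78, adjusted p = 1, with pairs 0.394).

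Hif1a was the 1 member of 6 whose GW5074 arrays at 6 h all lay above the low potassium arrays, as 5.04% of all probe sets did, with 980.2, 954.8 and 1013.7 against 853.4, 931.8 and 937.7. The change was 0.10 (95% interval -0.10 to 0.31, limma adjusted p = 0.983, with pairs 0.537), and at 3 h it was 0.05 (-0.15 to 0.26). Vhl changed by 0.10 at 6 h (-0.16 to 0.37) and by 0.01 at 3 h (-0.26 to 0.27). Egln2 changed by 0.02 at 6 h (-0.33 to 0.36) and by -0.09 at 3 h (-0.43 to 0.26).

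Egln3 had the widest intervals of the 6 genes in these comparisons, -0.12 at 6 h (95% interval -0.84 to 0.60) and 0.04 at 3 h (-0.68 to 0.76). With pairs they narrowed to -0.46 to 0.23 at 6 h and -0.31 to 0.38 at 3 h. All groups share the estimate of spread, so the 3 h interval without pairs also holds the wider 6 h spread of Egln3. Without the low potassium 6 h array B its difference at 6 h was 0.23, and without array C of that group it was -0.54. Epas1 changed by -0.07 at 6 h (-0.57 to 0.43). At 3 h the differences of Epas1 within the 3 letters were -0.27, -0.11 and -0.29, and the mean change of -0.22 (-0.72 to 0.27) did not pass (limma adjusted p = 1, with pairs 0.815).

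Of the 24 genes listed as partners of the pathway, which bind, modify or recruit the members, 17 were tested. Between the times 4 rose and 2 fell with GW5074, and 4 rose and 1 fell in low potassium, with medians of 0.04 and -0.04 against -0.02 and -0.04 over all 10260 genes tested. Of all genes tested 13.5% rose and 14.1% fell with GW5074, and 11.5% rose and 14.1% fell in low potassium, so counts this small are not a result about the list. Cited2, a HIF target that competes with the HIF alpha subunits for the coactivators p300 and CBP, rose by 1.63 with GW5074 (limma adjusted p = 3.97e-05) and by 1.51 in low potassium (9.19e-05), with mean intensities of 2356 ± 409 and 2309 ± 231 at 6 h, against 789 ± 47.9 and 844 ± 93.3 at 3 h in the same treatments (SD, n = 3 each). The genes of those coactivators rose as well, Ep300 by 1.20 with GW5074 and 0.90 in low potassium and Crebbp by 1.01 and 0.60 in the same order. Siah1, a ubiquitin ligase that targets EGLN proteins, rose by 0.42 with GW5074 and by 0.71 in low potassium.

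Arnt2, the neuronal dimerisation partner of the HIF alpha subunits, fell by 0.75 with GW5074 (limma adjusted p = 0.00346) and by 1.00 in low potassium (0.000912). Its mean intensity was 149 ± 28.3 with GW5074 and 124 ± 12.3 in low potassium at 6 h, against 245 ± 14.2 and 250 ± 8.29 at 3 h (SD, n = 3 each). The other partner that fell with GW5074 was Eloc, a subunit of the VHL ubiquitin ligase (-0.33, adjusted p = 0.0481), named here after its values were seen. That call ended in 12 of 20 alternatives, with values from -0.44 to -0.27 and adjusted p from 0.0126 to 0.173 over the 20. In low potassium Eloc did not pass, and its change was -0.28 to -0.06 over the 20 alternatives. Arnt itself was dim (mean 18.2) and not tested. Hif1an, the asparagine hydroxylase of the HIF subunits, had no probe set that carried its symbol alone and was not analysed. The calls of Cited2, Ep300 and Arnt2 held in all 20 alternatives in both treatments. That of Crebbp in low potassium ended without the low potassium arrays 6 h A (adjusted p = 0.0567) or 3 h B (0.0645), and that of Siah1 with GW5074 without any GW5074 array but 6 h B (adjusted p between 0.0551 and 0.139). The count of partners that fell with GW5074 was between 1 and 4 over the alternatives. GW5074 against low potassium gave 0 calls among the partners at either time without pairs, and with pairs Siah1 alone fell at 6 h (-0.41, adjusted p = 0.0416).

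**Figure D3:**
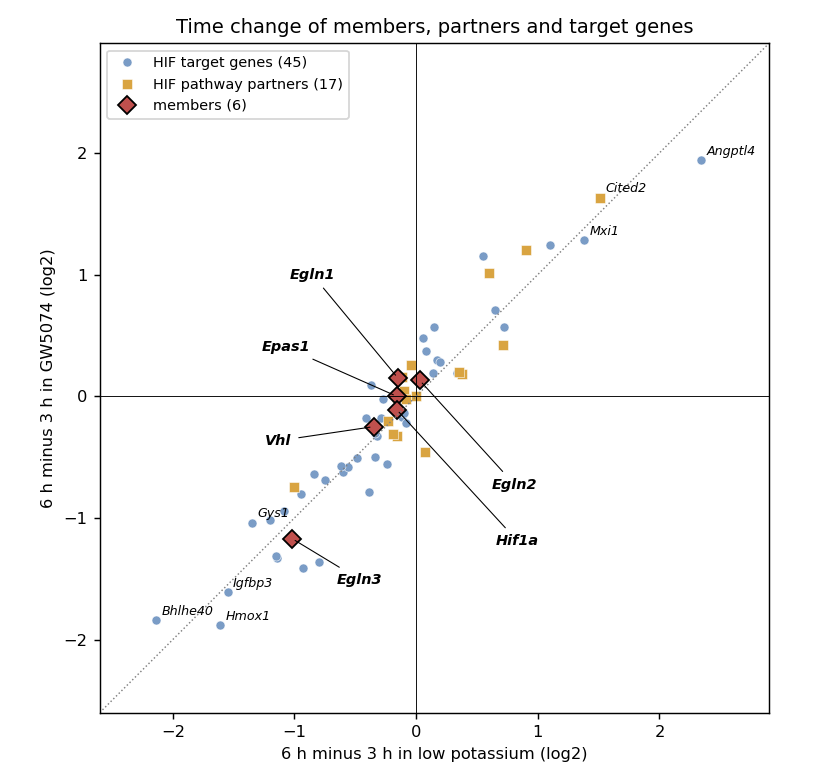
Change between 6 h and 3 h with GW5074 (vertical axis) against that in low potassium (horizontal axis), both in log2, for the 6 members (diamonds), 17 partner genes (squares) and 45 HIF target genes (circles). Egln3 lies at -1.17 and -1.02, Cited2 at 1.63 and 1.51 and the target Bhlhe40 at -1.84 and -2.14, and the other 5 members lie between -0.35 and 0.15 on both axes.

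Of 54 listed target genes of HIF, 45 were tested, and more of them fell than rose. With GW5074 16 fell and 9 rose, with a median of -0.22, and in low potassium 17 fell and 5 rose, with a median of -0.32. Over all genes tested the medians were -0.02 and -0.04, 14.1% fell in each treatment, and 13.5% rose with GW5074 and 11.5% in low potassium. In the average over both treatments 19 fell and 8 rose (median -0.29, against -0.03 over all genes). The number that fell in low potassium was 9 without the 3 h array B of that group, 10 without its 6 h array C and 11 without its 6 h array A. The number that rose was 3 without each of those same arrays, and with GW5074 it was 4 without 3 h A and 5 without 3 h B or 6 h A of that group. With GW5074 the number that fell was between 11 (without 6 h A) and 19 (without 6 h B) when an array was left out. Many of these genes also respond to signals other than HIF, and the list was chosen with earlier results of these data known.

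Among the targets that fell, Bhlhe40, a transcriptional repressor, had mean intensities of 88.0 ± 17.3 with GW5074 and 82.2 ± 47.1 in low potassium at 6 h, against 351 ± 27.4 and 378 ± 33.5 at 3 h (SD, n = 3 each). It fell by 1.84 with GW5074 and by 2.14 in low potassium (limma adjusted p = 0.000336 and 0.000266). The changes of the haem oxygenase Hmox1 were -1.88 with GW5074 and -1.61 in low potassium, and those of the growth factor binding protein Igfbp3 -1.61 with GW5074 and -1.55 in low potassium. The stress-responsive Ndrg1 changed by -1.41 with GW5074 and -0.93 in low potassium, the glycogen synthase Gys1 by -1.04 with GW5074 and -1.35 in low potassium, and the glucose transporter Slc2a1 by -0.64 with GW5074 and -0.84 in low potassium. These 6 genes passed in all 20 alternatives in both treatments.

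Vegfa, the vascular growth factor, fell by 0.69 with GW5074 (limma adjusted p = 0.018) and by 0.75 in low potassium (0.0134). Ddit4, an inhibitor of mTOR signalling, fell by 0.62 and 0.60 (adjusted p = 0.0361 and 0.043). The call of Vegfa ended with GW5074 without 6 h A (0.068), 6 h C (0.0679) or 3 h C (0.0715) of that group, and in low potassium without 6 h C (0.0594) or 3 h B (0.0645). That of Ddit4 ended in 7 of 20 alternatives with GW5074 and in 10 of 20 in low potassium, with values from -0.76 to -0.44 and from -0.80 to -0.48. The mitophagy gene Bnip3, a classical HIF target, had changes of -0.17 with GW5074 and -0.12 in low potassium and did not pass. In the opposite direction Angptl4, a lipase inhibitor, rose by 1.94 with GW5074 and 2.34 in low potassium (adjusted p = 0.000747 and 0.000403), in all 20 alternatives. GW5074 against low potassium gave 0 calls among the 45 targets at either time, with or without pairs.

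Of 23 listed genes of 2-oxoglutarate and iron supply, the co-substrate and cofactor of the EGLN enzymes, 18 were tested. With GW5074 3 rose and 1 fell between the times, and in low potassium 2 rose and 1 fell. Over all genes 13.5% rose and 14.1% fell with GW5074 and 11.5% and 14.1% in low potassium, so these counts are not a result about the list, and the genes below are described singly. Idh1, the cytosolic isocitrate dehydrogenase that makes 2-oxoglutarate, rose by 0.91 with GW5074 (limma adjusted p = 0.00214) and by 0.62 in low potassium (0.0185), and its mitochondrial counterpart Idh2 fell by 0.54 (0.0181) and 0.70 (0.00514) in the same treatments. Idh3g, a subunit of the other mitochondrial form, rose by 0.31 and 0.39, and D2hgdh, which returns 2-hydroxyglutarate to 2-oxoglutarate, rose by 0.94 with GW5074 (0.00913). D2hgdh did not pass in low potassium, where its change was 0.13 to 0.38 over 19 alternatives. The low potassium call of Idh1 ended without the 6 h arrays A or C or the 3 h arrays A or B of that group (adjusted p between 0.0509 and 0.0783), and the GW5074 call of Idh2 without GW5074 3 h B (0.095). The GW5074 call of Idh3g ended in 8 of 20 alternatives and its low potassium call without 6 h A, 6 h C or 3 h A of that group (0.0525 to 0.0545). GW5074 against low potassium gave 0 calls in this list at either time, with or without pairs.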

How the data were processed

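Total RNA was measured on 12 Affymetrix rat arrays, and the table the authors deposited holds 1 linear intensity per probe set and array. Judged from the values, the authors scaled every array to a trimmed mean of 150.0 to 150.1 (2% trimmed at each end). The sources used here do not give the summarisation method or its software. Of the 31099 probe sets, 57 are controls, 20826 carry 1 gene symbol in the platform table, 436 several and 9780 none, and 20758 matched RefSeq's rat genes by Entrez identifier.

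Non-control probe sets were quantile-normalised and log2(intensity + 16) was computed. A probe set was tested if its mean over the 12 arrays reached the 40th percentile (28.0), which left 18625 for 10260 genes. The model in limma 3.58.1 (R 4.3.3) had a mean for each of the 4 groups and no block, moderated with a trend and tested on both sides, with Benjamini-Hochberg adjustment over all tested probe sets at 0.05. Intensities with an SD are arithmetic values as deposited. With pairs (a replicate block), the letter within a time was a fixed pair for GW5074 and a random block for time (correlation 0.496). The labels' letters give the pairing: with group means removed, the GW5074 and low potassium arrays of letters A, B and C correlated by 0.293, 0.65 and 0.571 at 6 h and by 0.426, 0.209 and 0.543 at 3 h. Across times the range was -0.0668 to 0.182, and no pairing was used there. Residual degrees of freedom were 8 without pairs and with the random block, and 4 with fixed pairs. The average over both treatments was added after seeing the data. It always used the random block.

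All 6 members were named, with up to 4 list genes of smallest p past the threshold per list and comparison and 7 preset genes (Arnt, Hif1an, Cited2, Vegfa, Slc2a1, Bnip3 and Ddit4). A list gene named for 1 treatment is given in the other as well where it passed there. For D2hgdh and Eloc, which did not pass there, the range over the alternatives is given. The members, lists and tests were chosen with earlier results of these data known. Alternatives were 1 or 64 added before log2, no filter or one at the 60th percentile, no further normalisation, no trend, pairs, and leaving out each array or pair. Leaving out both 6 h arrays of letter B was added after seeing the data. Plots used matplotlib 3.10.9 (Python 3.11.15).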

Additional observations from a re-analysis of the deposited data

How the results depend on the processing

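No member passed in any GW5074 comparison under any of the alternatives run. Of 924 recomputed log2 changes of the members, 861 kept their direction and their side of the threshold, as did 878 of 958 of the other named genes, where the other 80 kept their direction only. A change of 0.00 was taken to have no direction to lose. With pairs (a replicate block) 349 probe sets passed for GW5074 at 6 h, 3 at 3 h and 36 in the difference between the times, against 0 in each without pairs, and no member's call changed. Leaving out a pair moved these counts to between 59 and 292, 0 and 6, and 0 and 156, in the same order. Leaving out an array moved the counts without pairs to between 0 and 3 for GW5074 at 6 h, 2454 and 5363 for time with GW5074 and 2192 and 4957 for time in low potassium. The number of members that passed between the times was 0 to 1 in each treatment and 1 to 2 in the average when an array was left out. It was 0 in low potassium with 1 added, no filter, no further normalisation or no trend, 0 with GW5074 and in the average with a filter at the 60th percentile, which removed Egln3, and 2 in the average with no filter, where Vhl passed. The cause of these losses was otherwise not tested. Signs turned for changes near 0 when an array or pair was left out. GW5074 minus low potassium at 6 h ranged from -0.13 to 0.17 for Egln2, -0.54 to 0.23 for Egln3 and -0.32 to 0.20 for Epas1. At 3 h it ranged from -0.11 to 0.03 for Egln1, -0.19 to 0.01 for Egln2, -0.06 to 0.11 for Egln3 and -0.08 to 0.09 for Vhl. The difference between the times ranged from -0.04 to 0.25 for Egln2, -0.58 to 0.20 for Egln3, -0.09 to 0.43 for Epas1 and -0.03 to 0.09 for Hif1a. The change between the times ranged in low potassium from -0.12 to 0.17 for Egln2 and -0.29 to 0.05 for Epas1, with GW5074 from -0.25 to 0.27 for Epas1, and in the average from -0.12 to 0.08 for Egln1, -0.03 to 0.21 for Egln2 and -0.25 to 0.16 for Epas1. Without both 6 h arrays of letter B, Egln2 at 6 h and the Epas1 difference between the times were -0.01 each.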
